A study of Mus musculus with 11 samples.

Results

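The 33 genes described here encode the glucose and lactate transporters, the enzymes of glycolysis, the enzymes that direct pyruvate, and the regulators and targets of the hypoxia-inducible factor (HIF). They were chosen by name, with no measured value in the rule, but earlier results of these data were known. All 33 were found among the 22369 mouse Ensembl gene IDs of the read count table. The samples were 11 clones of EBRTcH3, a mouse embryonic stem cell line in which the ROSA26 promoter drives a tetracycline-controlled transactivator. In every clone the mPB transposase had inserted several barcoded piggyBac reporters at random positions, each driven by mPGK, the promoter of the member gene Pgk1 of the mouse. The cells were sorted for high eGFP signal, plated sparsely and picked as single clones, here called by their label numbers 16 to 26. All grew with leukemia inhibitory factor, the MEK inhibitor PD0325901 and the GSK-3 inhibitor CHIR99021 in medium that was partly conditioned by BRL cells. Each clone gave 1 RNA-seq library from total RNA, and no parental or untreated library was analysed here. A clone and its library therefore cannot be told apart, and in bulk RNA fewer cells that express a gene and less RNA per cell cannot be told apart either.

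Glycolysis splits glucose into pyruvate, first spending ATP in an upper phase that ends with triose phosphates and then recovering ATP in a lower phase that ends at pyruvate kinase. Pyruvate is reduced to lactate by lactate dehydrogenase or enters the mitochondrion through pyruvate dehydrogenase, which the pyruvate dehydrogenase kinases switch off. HIF-1 is a dimer of HIF1A, which prolyl hydroxylases mark for destruction when oxygen is present, and ARNT. It binds hypoxia response elements with the core RCGTG and raises many glycolytic genes, and mouse pluripotent cells are known for active glycolysis even in air.

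The libraries held 10846005 to 16868500 counts, with a median of 14378599, and the pluripotency genes were high, with a summed level of 6096 to 7919 CPM (each count scaled to its library's total) over 7 of 7 markers, lowest in clone 17 and highest in clone 16. Markers of other cells were low: summed over the list, 9.52 to 25.8 CPM for 8 fibroblast genes, 2.86 to 8.70 for 6 endoderm genes, 5.11 to 18.1 for 5 mesoderm genes and 0.817 to 5.64 for 5 liver genes. Only 3, 2, 2 and 2 genes of these lists reached a mean of 1 CPM, the liver gene Alb was at 0 in all 11 libraries, and the fibroblast genes Dcn and Lum had means of 0.00573 and 0.00571 CPM. The 4 neural genes found of 5 listed summed to 48.7 CPM in clone 25 and 122 CPM in clone 22, with 80.8 CPM in clone 17, and were the list whose tested members all varied (3 of 3). The part of these genes in the results below was not tested.

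The stretch of DNA upstream of 4 of these genes is shown because they stand for different relations to the rest: Pgk1 shares its promoter with the reporters, Ldha moved with most of the glycolytic enzymes, and Bnip3 and Pdk1 had among the widest spreads. Each line gives the 250 bases before a RefSeq transcription start in build GRCm38.p6, read 5′ to 3′ on the gene's strand, with ACGTG and GCGTG on either strand in capitals (CACGT and CACGC on the printed strand). These are the letters of the 2 forms of the HIF core.
Pgk1, chrX:106186850-106187099, plus strand: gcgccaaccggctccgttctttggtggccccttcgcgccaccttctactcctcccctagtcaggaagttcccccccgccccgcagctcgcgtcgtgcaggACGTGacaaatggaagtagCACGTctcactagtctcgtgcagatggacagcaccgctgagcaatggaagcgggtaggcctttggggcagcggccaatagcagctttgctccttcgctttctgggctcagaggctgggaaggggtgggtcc
Ldha, chr7:46845554-46845803, plus strand: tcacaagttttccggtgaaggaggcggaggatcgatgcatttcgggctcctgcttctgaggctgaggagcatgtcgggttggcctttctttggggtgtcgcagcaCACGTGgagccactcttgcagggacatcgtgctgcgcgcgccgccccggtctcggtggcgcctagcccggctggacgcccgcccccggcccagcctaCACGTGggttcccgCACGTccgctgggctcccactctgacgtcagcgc
Bnip3, chr7:138909507-138909756, minus strand: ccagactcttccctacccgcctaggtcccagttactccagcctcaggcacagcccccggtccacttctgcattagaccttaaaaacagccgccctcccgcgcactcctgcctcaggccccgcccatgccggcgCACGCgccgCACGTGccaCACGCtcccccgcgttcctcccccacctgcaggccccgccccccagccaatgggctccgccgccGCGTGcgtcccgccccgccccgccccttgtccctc
Pdk1, chr2:71872974-71873223, plus strand: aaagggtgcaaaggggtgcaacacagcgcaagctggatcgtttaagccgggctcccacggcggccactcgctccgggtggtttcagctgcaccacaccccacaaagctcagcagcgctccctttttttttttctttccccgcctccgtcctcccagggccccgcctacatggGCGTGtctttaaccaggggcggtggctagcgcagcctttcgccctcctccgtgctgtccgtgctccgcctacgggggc

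The Pgk1 window held ACGTG 150 bases before the start on the gene's strand and 131 bases before it on the other strand. The Ldha window held 5 matches of ACGTG, of which 4 came from 2 copies of the palindrome CACGTG, which is read on both strands and is also the letters of the E-box. The Bnip3 window held 2 ACGTG, both from 1 such palindrome, and 3 GCGTG. The printed Pdk1 window held no ACGTG and 1 GCGTG. A second RefSeq window of Ldha, not printed, held 1 GCGTG and no ACGTG. A second Pdk1 window, also not printed, held neither. RefSeq windows were found for 31 of the 33 members, 44 windows in all. ACGTG was present upstream of 19 of the 31 (61.3%), against 18.5% of 27025 genes with a window and 16.6% of 32851 windows. ACGTG or GCGTG was present upstream of 28 of the 31 (90.3%), against 41.5% of genes and 38.6% of windows. The share of G and C ran from 62.8% in the Pgk1 window to 72.4% in the Bnip3 window among the 4 printed. The background was not matched for this share or for the number of windows of a gene. A gene counted if any of its windows held the letters, and the members include genes listed as HIF targets.

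Aldoa, the main aldolase, Pkm, the last kinase of glycolysis, and Slc2a3, the high-affinity glucose transporter GLUT3, were the most abundant members. Divided by the length of the gene's merged exons, Aldoa stood at 617 ± 138 CPM per kb (SD, n = 11 clones), Pkm at 541 ± 86.5 and Slc2a3 at 380 ± 66.6, and the same 3 led when the length of 1 transcript was used. Pgk1, phosphoglycerate kinase, was the fifth of 33 at 146 ± 24.1 CPM per kb. Gapdh, the enzyme before Pgk1, was 22nd at 17.2 ± 1.67 CPM per kb of merged exons. Of the 50-base words of the Gapdh transcript 90.4% also occurred in another annotated gene, 222 genes in all. The corresponding shares were 72.2% for Eno1, 68.0% for Pgk1, 62.5% for Bnip3, 41.5% for Pgam1 and 34.4% for Pkm. The sources used here do not give how reads that match several genes were counted. The levels of these genes, their spreads and their correlations are therefore uncertain. For Hk1, Hk2, Pfkm, Pdk1, Vegfa and P4ha1 no such word was shared.

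**Figure D1:**
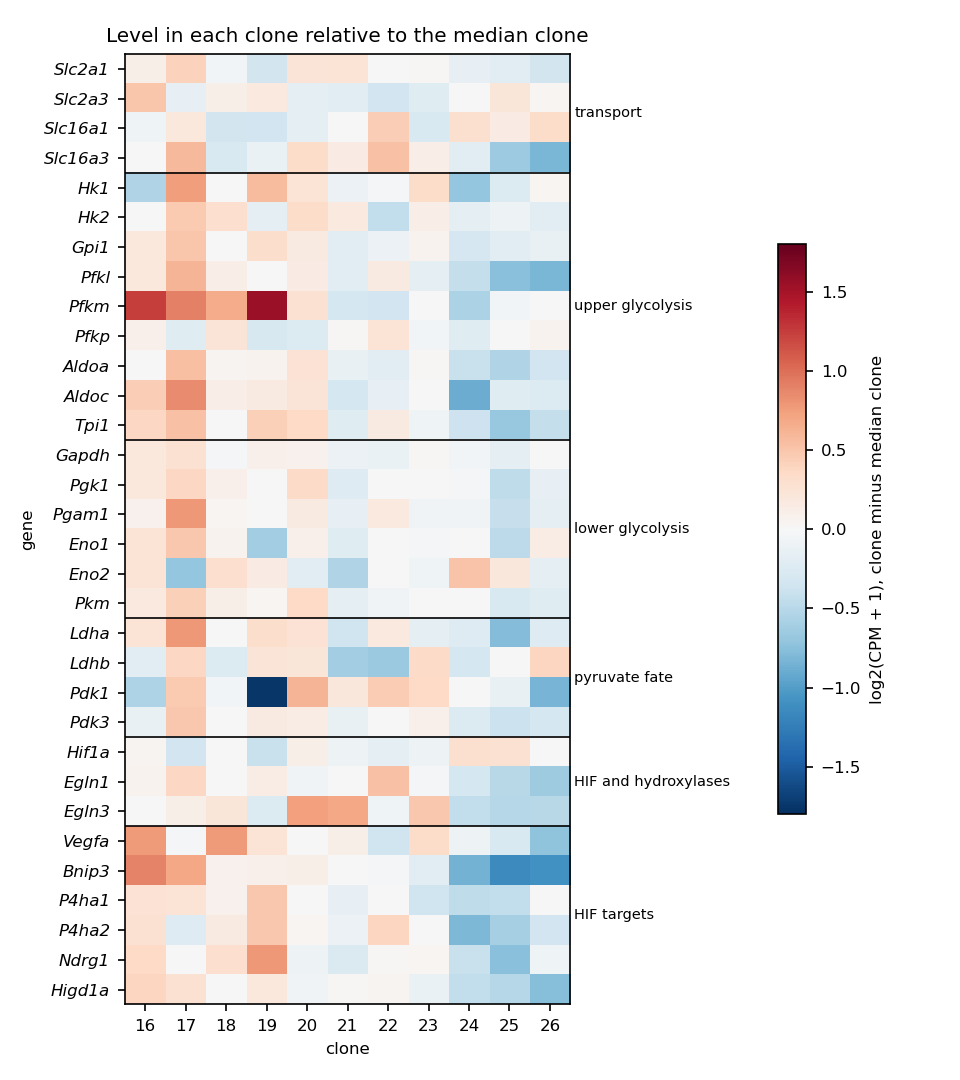
Level of each of the 32 tested members in each clone as the difference of log2(CPM + 1) from that gene's median over the 11 clones (red above, blue below), with genes ordered by role. Clone 17 was above the median in most rows, clones 24, 25 and 26 were below it in most, and Pfkm (red) and Pdk1 (blue) in clone 19 had the deepest colours.

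Of the 32 members with a mean of at least 1 CPM, 8 varied more between clones than genes of their abundance usually do (goodness of fit to the edgeR dispersion trend, Benjamini-Hochberg adjusted p under 0.05), where 959 of all 12479 genes tested were (7.68%) and the members' share was 25%. At an unadjusted p under 0.05 there were 12 members, and 13.1% of all genes. The variable members were Hk1, Pfkl, Pfkm and Tpi1 of the 9 upper-phase genes, Ldha and Pdk1 of the 4 pyruvate genes, and Vegfa and Bnip3 of the 6 tested HIF targets. None of the 4 transporters, the 6 lower-phase enzymes or the 3 genes of HIF control was called by edgeR, with 1, 0 and 1 of them at an unadjusted p under 0.05. The median coefficient of variation was 24.3% for the members and 17.9% for all genes tested. The count moved with single libraries: it was 4 without clone 17, where Hk1, Pfkl, Tpi1 and Ldha were lost, 5 without clone 25, 5 without clone 26 and 10 without clone 16 or clone 19. Pfkm, Pdk1 and Bnip3 were called in every alternative that was run.

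Among the transporters, Slc2a3 lay between 2140 CPM (clone 22) and 3834 (clone 16), with a median of 2724. Slc2a1, the widespread glucose transporter GLUT1, lay between 230 CPM (clone 19) and 385 (clone 17). Slc16a1 and Slc16a3, which carry lactate across the membrane as MCT1 and MCT4, had a correlation of -0.02 with each other over the clones. Slc16a3 was lowest in clone 26 at 24.3 CPM and highest in clone 17 at 66.3, with a median of 43.8 (adjusted p = 0.0811, edgeR trend, but 0.0353 without clone 16, 0.0288 without clone 19 and 0.0175 with the neighbours' shift as an offset). Slc16a1 lay between 65.5 CPM (clone 19) and 114 (clone 22). Slc16a1 made up 61.8% of the pair per exon kb in clone 20 and 83.9% in clone 26.

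Hk1 and Hk2, the hexokinases that trap glucose in the cell, both had their highest level in clone 17. Hk1 (ENSMUSG00000037012, chromosome 10) ranged from 89.1 CPM in clone 24 through a median of 145 to 245 in clone 17 (adjusted p = 0.0091, edgeR trend). Hk2 lay between 194 CPM (clone 22) and 366 (clone 17) (adjusted p = 0.99, edgeR trend). The Hk1 call was lost without clone 17 or clone 24, and its adjusted p lay between 0.00124 and 0.0941 over 16 alternatives. Gpi1, which turns glucose-6-phosphate into fructose-6-phosphate, lay between 347 CPM (clone 24) and 607 (clone 17).

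Phosphofructokinase, the committing step of glycolysis, is built from the subunits Pfkl, Pfkm and Pfkp, named for liver, muscle and platelet. Pfkm (ENSMUSG00000033065, chromosome 15) stood at 152, 120, 101 and 187 CPM in clones 16, 17, 18 and 19, and between 42.2 and 76.6 CPM in the other 7 clones. These 4 were the highest clones (adjusted p over all 11 = 1.87e-10, edgeR trend). The 24 tested genes nearest to Pfkm were also higher in these clones: their median lay 0.50, 0.55, 0.42 and 0.72 above the median clone on the log2 scale, against 1.25, 0.91, 0.67 and 1.55 for Pfkm itself. With the neighbours' shift taken out as an offset, an alternative chosen after seeing the data, Pfkm was still called at an adjusted p of 0.0387. Pfkl (ENSMUSG00000020277, chromosome 10) ranged from 145 CPM in clone 26 through a median of 257 to 394 in clone 17 (adjusted p = 0.0100, edgeR trend, 0.000446 to 0.121 over the alternatives). Pfkp lay between 542 CPM (clone 19) and 786 (clone 22), with a coefficient of variation of 13.2%. Pfkm was highest in clone 19 and lowest in clone 24, and its correlation with Pfkp over the 11 clones was -0.22. The Pfkm share of the 3 subunits per exon kb was 12.8% in clone 22 and 41.5% in clone 19, and per coding kb 4.45% and 19.05%.

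**Figure D2:**
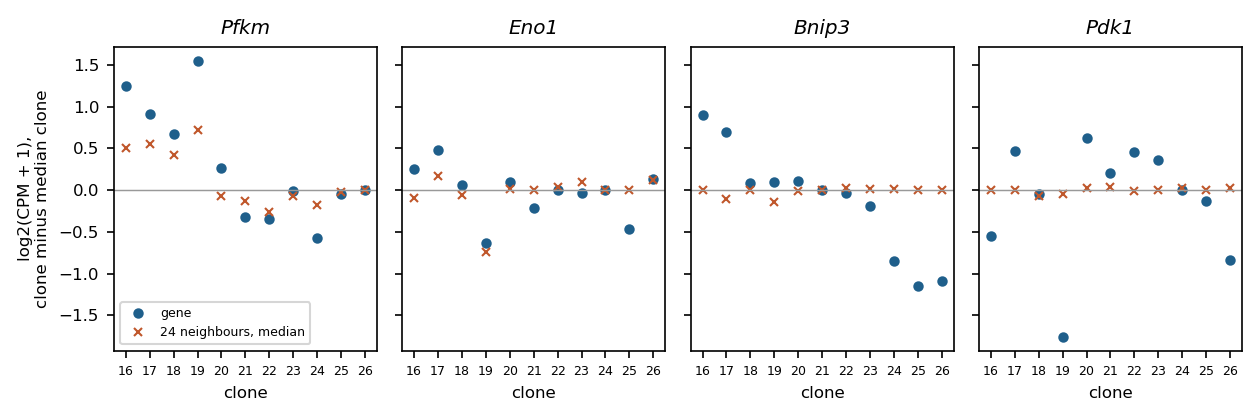
Difference of log2(CPM + 1) from the median clone for Pfkm, Eno1, Bnip3 and Pdk1 (circles) and the median of the same quantity over the 24 tested genes nearest on the chromosome (crosses), by clone. The neighbours of Pfkm were up to 0.72 above the median clone in clones 16 to 19 and those of Eno1 0.74 below it in clone 19, while those of Bnip3 and Pdk1 stayed within 0.14 of it.

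Downstream in the upper phase, Aldoa lay between 1260 CPM (clone 25) and 2677 (clone 17) with a median of 1834. Aldoc, the aldolase best known from brain, was lowest at 11.4 CPM in clone 24 and highest at 40.6 in clone 17. Tpi1 (ENSMUSG00000023456, chromosome 6), which interconverts the triose phosphates, ranged from 166 CPM in clone 25 through a median of 267 to 385 in clone 17 (adjusted p = 0.0357, edgeR trend). Its call was lost in 7 of 16 alternatives, with the filter removed and without clone 17, 20, 21, 24, 25 or 26, and the adjusted p lay between 0.0182 and 0.347.

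In the lower phase no gene passed the test, and the highest level of 5 of the 6 was in clone 17. Gapdh had the smallest spread of all members, from 61.4 CPM in clone 25 to 84.5 in clone 17 with a median of 69.8, a coefficient of variation of 9.70%. Pgk1 ranged from 233 CPM in clone 25 through a median of 321 to 414 in clone 17, with a mean of 328 ± 54.1 CPM (adjusted p = 1, edgeR trend). Clone 20 was near the top at 409 CPM. Pgam1, phosphoglycerate mutase, reached 161 CPM in clone 17, while the other 10 clones lay between 69.4 and 106 CPM. Its 24 neighbours on chromosome 19 were 0.34 above the median clone in clone 17 on the log2 scale, against 0.78 for Pgam1. Eno1, the main enolase, was lowest in clone 19 at 140 CPM and highest in clone 17 at 305, with a median of 218. In clone 19 Eno1 lay 0.63 below the median clone on the log2 scale and its neighbours on chromosome 4 lay 0.74 below. Eno2, the neuronal enolase, was low, and clone 17 held its lowest level of 4.21 CPM and clone 24 its highest of 11.2. Pkm lay between 2160 CPM (clone 25) and 3528 (clone 17).

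Ldha (ENSMUSG00000063229, chromosome 7), the lactate-forming subunit, had 686 CPM in clone 17, a median of 400 and 233 CPM in clone 25 (adjusted p = 0.0112, edgeR trend). The other 9 clones lay between 311 and 500 CPM, so both ends stood apart, and the call was lost without either of them. Ldhb, the subunit typical of heart, had another order: 207 CPM in clone 22, a median of 329 and 431 in clone 26 (adjusted p = 0.0530, edgeR trend, 0.00699 to 0.331 over the alternatives). Pdk1 (ENSMUSG00000006494, chromosome 2) was low in clones 19, 26 and 16, with 57.4, 109 and 133 CPM, and lay between 179 and 302 CPM in the other 8 clones (adjusted p = 2.64e-09, edgeR trend). In clone 19 it lay 1.76 below the median clone on the log2 scale while its neighbours lay 0.05 below. Pdk3 lay between 18.1 CPM (clone 25) and 34.2 (clone 17) (adjusted p = 1, edgeR trend). Pdk1 made up 41.2% of the pair per exon kb in clone 19 and 65.1% to 79.0% in the other clones, and 67.0% per coding kb in clone 19.

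**Figure D3:**
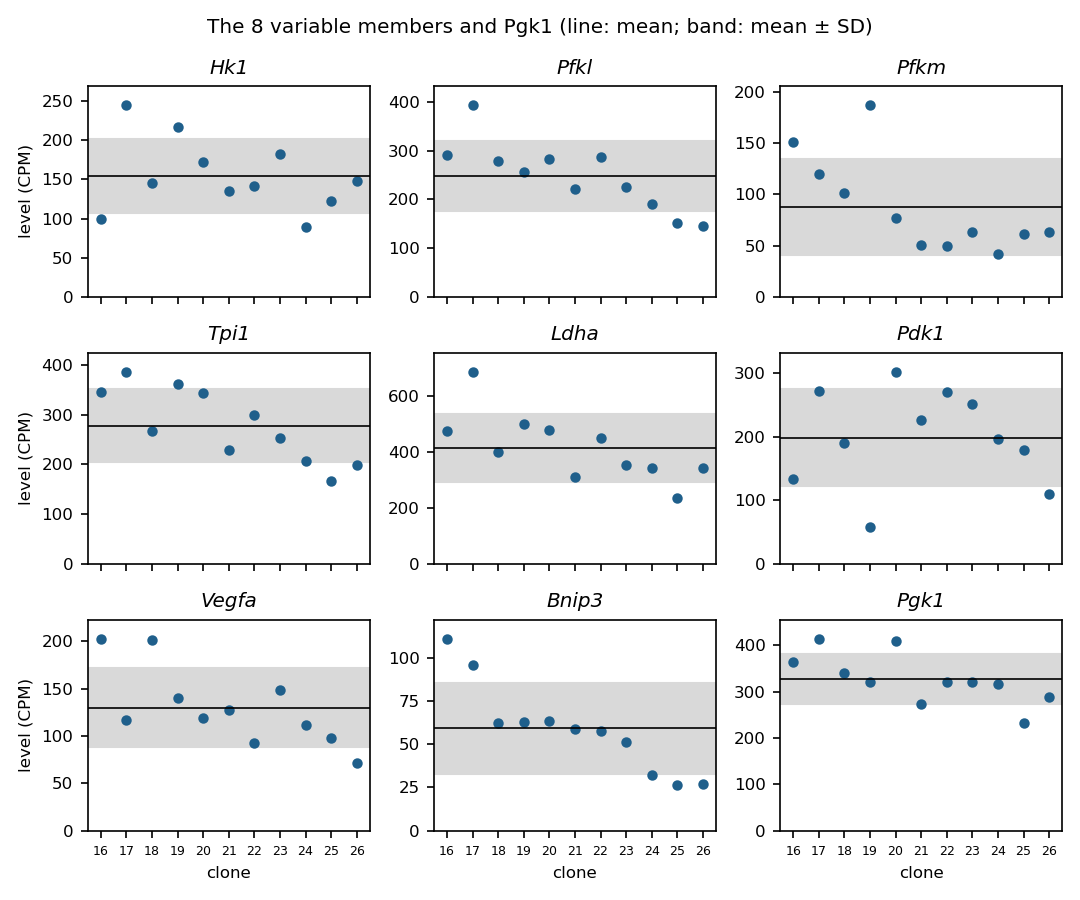
Level in CPM of the 8 members that varied between clones, and of Pgk1, in each clone (points), with the mean over 11 clones (line) and the mean ± SD (band), each axis starting at 0. Clone 17 was highest for Hk1, Pfkl, Tpi1 and Ldha, clones 16 to 19 for Pfkm, clone 16 for Vegfa and Bnip3, and Pdk1 was lowest in clone 19 at 57.4 CPM.

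Hif1a, the oxygen-controlled HIF subunit, ranged from 175 CPM in clone 19 through a median of 231 to 281 in clone 24, with 182 in clone 17 and 280 in clone 25. The mRNA level does not measure the protein, which is set mainly by degradation. Egln1 and Egln3, 2 of the prolyl hydroxylases that act on HIF1A and are themselves HIF targets, were lowest in clones 26 and 25. Egln1 lay between 15.5 CPM (clone 26) and 35.9 (clone 22), where its neighbours on chromosome 8 were 0.56 above the median clone on the log2 scale and Egln1 0.53. Egln3 lay between 15.5 CPM (clone 25) and 38.4 (clone 20) (adjusted p = 0.23, edgeR trend).

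Of the HIF targets, Bnip3 (ENSMUSG00000078566, chromosome 7), a mitophagy receptor, had the largest coefficient of variation among the 6 tested, 44.7%. Its level was 111 CPM in clone 16 and 96.0 in clone 17, and it was 51.4 to 63.6 in clones 18 to 23 and 32.4, 26.1 and 27.1 in clones 24, 25 and 26 (adjusted p = 6.44e-07, edgeR trend, at most 0.000135 in the alternatives). Clones 16 and 17 were thus above, and clones 24, 25 and 26 below, all other clones, and the neighbours of Bnip3 stayed within 0.14 of the median clone. Vegfa (ENSMUSG00000023951, chromosome 17), the vascular growth factor, ranged from 71.4 CPM in clone 26 through a median of 119 to 203 in clone 16, with 202 in clone 18 (adjusted p = 0.00486, edgeR trend). Its call was lost without clone 18 or clone 26. P4ha1 and P4ha2, collagen prolyl hydroxylases, and Ndrg1, a stress-response gene, were all highest in clone 19, at 60.8, 15.6 and 50.6 CPM. Higd1a, a mitochondrial inner membrane protein, lay between 11.7 CPM (clone 26) and 27.1 (clone 16). Ankrd37, an ankyrin-repeat gene, was below the limit for testing with 0.898 ± 0.636 CPM. It was highest in clone 16 at 2.17 CPM and lowest in clone 24 at 0.189, where 3 counts were found.

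Several members had their extremes in the same clones. Clone 17 held the highest level of 16 of the 32 tested members (50%), and of 15.2% of all genes tested. The neural gene Pax6 was called higher in this clone, at 10.2 CPM against 0.985 ± 0.465 in the other 10 (log2 change 3.35, adjusted p = 0.0155, edgeR quasi-likelihood), and the summed liver genes were also highest there at 5.64 CPM. Of that liver sum 5.09 CPM came from Fgg, while Alb, Ttr and Afp were at 0 and Apob at 0.556 CPM. Of the other neural genes, Nes was above its median in clone 17 (48.2 against 17.5 CPM). Tubb3 and Neurod1 were below theirs there (22.2 against 51.9 and 0.238 against 0.503 CPM). The part of these genes in the members' levels was not tested. Clone 25 held the lowest level of 11 members (34.4%), and of 6.43% of all genes. Relative to each gene's median over the clones, the median of the members was 0.42 higher in clone 17 on the log2 scale, 0.18 in clone 16, 0.15 in clone 20 and 0.12 in clone 19. It was 0.33 lower in clone 25, 0.23 in clone 24, 0.21 in clone 26 and 0.13 in clone 21, while the median of all genes was 0.00 in every clone. In clones 24, 25 and 26, 21, 24 and 21 of the 32 members lay more than 0.1 below their median clone, against 32.6%, 26.9% and 32.3% of all genes. The HIF targets were the lowest role in these 3 clones, with medians of -0.45, -0.56 and -0.53. Clones 17 and 25, at the opposite ends, had totals of 12962177 and 13387129 counts. The part of depth or RNA quality in these shifts was not tested.

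Set against the other 10 clones, no member was called in any clone by the edgeR quasi-likelihood test at an adjusted p under 0.05, where 293 of 137269 pairs of a gene and a clone were called (0.213%). At an unadjusted p under 0.05 there were 31 of 352 member pairs (8.81%), where 5.92% of all pairs were. The smallest adjusted p were 0.0951 for Pgam1 in clone 17 (161 CPM against 91.2 ± 11.0, log2 change 0.82 with a standard error of 0.17) and 0.245 for Pdk1 in clone 19 (57.4 CPM against 213 ± 62.7, log2 change -1.89 with a standard error of 0.49). DESeq2 called these 2 pairs, with adjusted p of 0.00564 and 0.00215, and 1444 pairs in all.

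**Figure D4:**
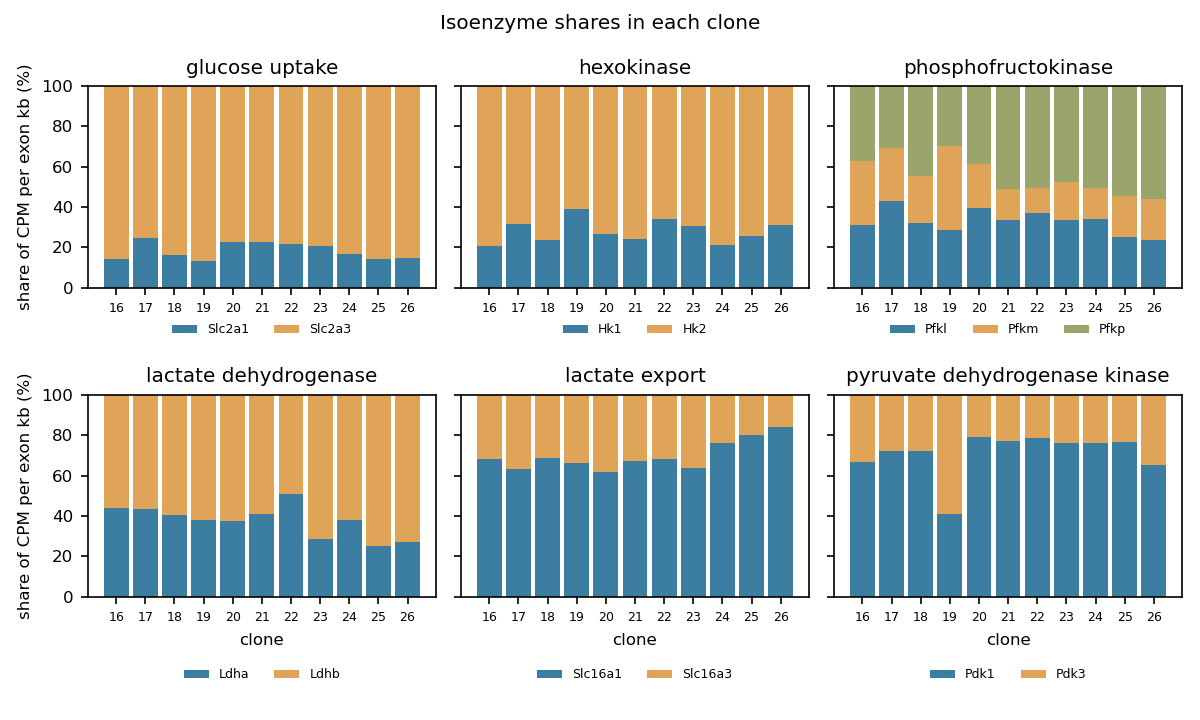
Share of each isoenzyme in the summed CPM per exon kb of its step, in percent, by clone, for 6 steps with more than 1 member. Slc2a3 and Hk2 led in all 11 clones, while Pfkm reached 41.5% of phosphofructokinase in clone 19 and Pdk3 passed Pdk1 there, which per coding kb were 19.05% and no change of order.

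At 6 of 10 steps with several members the same isoenzyme led in all 11 clones per exon kb. All shares are over the members of a step only. Slc2a3 made up 81.7% ± 4.12 of the glucose transporters (SD, n = 11), Hk2 71.9% ± 5.75 of the hexokinases and Aldoa 98.9% ± 0.199 of the aldolases. Eno1 made up 96.0% ± 1.47 of Eno1 and Eno2. The enolase Eno3, not a member, was left out, with a mean of 13.5 CPM against 7.58 for Eno2. Slc16a1 made up 69.9% ± 7.19 of the lactate carriers and P4ha1 86.0% ± 2.53 of the collagen hydroxylases. The leader changed between clones for phosphofructokinase, lactate dehydrogenase, pyruvate dehydrogenase kinase and the HIF prolyl hydroxylases Egln1 and Egln3. The hydroxylase Egln2, not a member, was left out of these shares. It lay between 60.8 and 85.1 CPM, while Egln1 and Egln3 reached at most 35.9 and 38.4 CPM. Some of the changes of leader depended on the length used. With coding length the leader still changed for lactate dehydrogenase and for Egln1 and Egln3. Per coding kb, Pfkp led in every clone (lowest 52.3%, in clone 17) and so did Pdk1 (lowest 67.0%, in clone 19), and per kb of 1 transcript Hk2 fell to 43.2% in clone 19 and no longer led in all clones. For lactate dehydrogenase the order of the means changed as well: Ldhb made up 62.4% ± 7.78 per exon kb and Ldha 53.6% ± 8.39 per coding kb. Pfkp made up 44.6% ± 9.12 of phosphofructokinase per exon kb and 66.2% ± 7.98 per coding kb.

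The members moved together across clones. Over all 496 pairs of tested members the median Pearson correlation of log2(CPM + 1) over the 11 clones was 0.395, and 72.0% of pairs were above 0. Over all 77856481 pairs of tested genes the median was 0.0003 and 50.03% were above 0. These values are a description: all genes of a clone share 1 library and its scaling. The median was 0.58 within the 15 glycolytic enzymes and Ldha, 0.67 within the 6 HIF targets, where 15 of 15 pairs were above 0, and 0.50 between those groups. Bnip3 and Higd1a had the highest correlation of any pair of members (0.96), and Bnip3 was also close to the enzymes Pfkl (0.92) and Tpi1 (0.89). Some members stood outside: the median correlation with the other members was -0.32 for Eno2, -0.29 for Slc16a1, -0.09 for Pfkp, -0.07 for Slc2a3, 0.12 for Pdk1 and 0.12 for Ldhb.

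**Figure D5:**
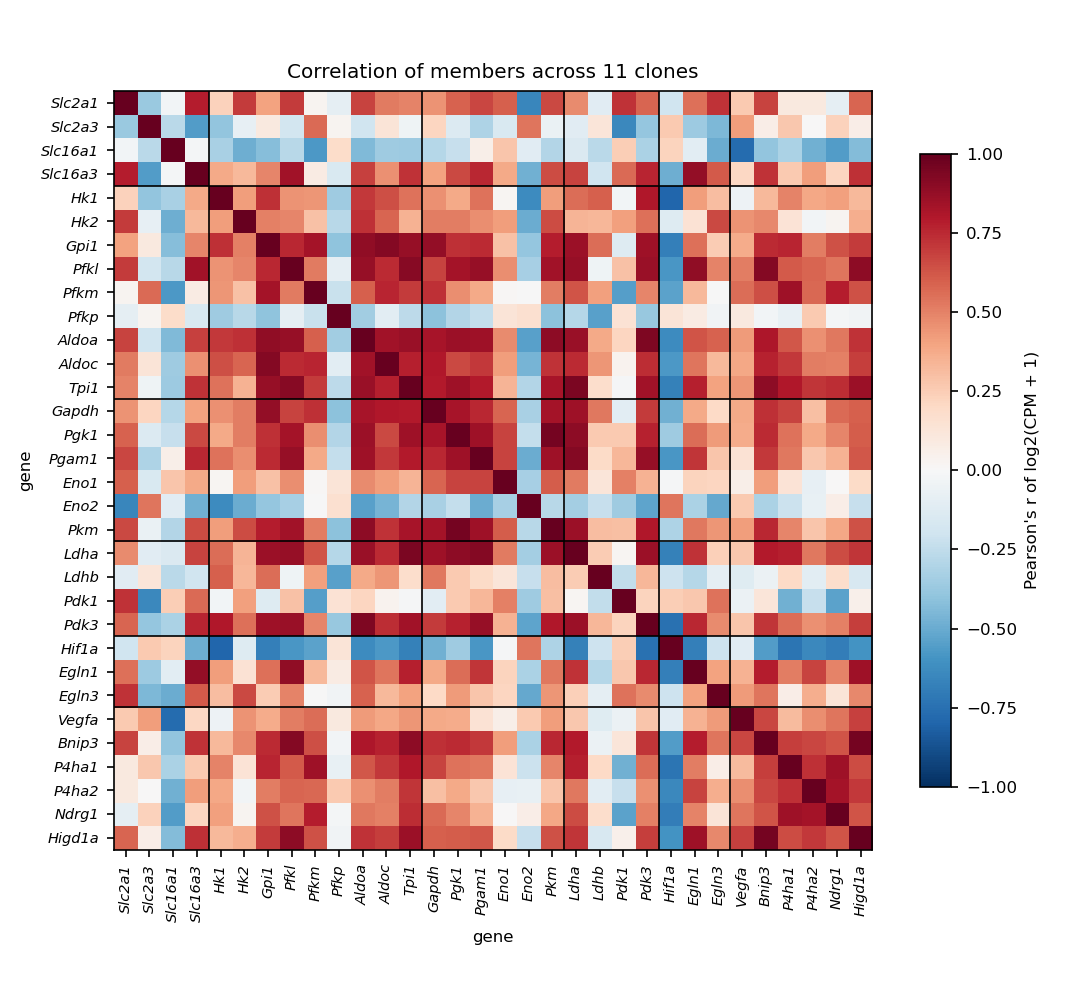
Pearson correlation of log2(CPM + 1) over 11 clones for every pair of the 32 tested members, with lines between the roles. Most enzymes and HIF targets formed a red block, whereas the rows of Pfkp, Eno2, Slc16a1 and Hif1a were mostly blue, down to -0.79 for Hif1a with Hk1.

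Pgk1, Ldha and Hif1a were followed through all 12478 other tested genes, which gave 37434 correlations. None had an adjusted p under 0.05 in the permutation test (100000 permutations, two-sided), and the smallest adjusted p was 0.0936 for Pearson and 0.17 for Spearman correlations. The smallest p that these permutations can give is 1e-05, so at least 8 pairs had to reach it for a call. At an unadjusted p under 0.05, 14 of 31 members correlated positively with Pgk1 and 0 negatively, where 3.25% and 2.67% of all genes did. With Ldha there were 17 and 1 members, where 8.17% and 6.83% of all genes did. With Hif1a there were 0 and 10 members, where 10.7% and 10.1% of all genes did. Counted in both directions, the Hif1a count of 10 was 4 without clone 25 (2354 of 12478 genes), 5 without clone 17 (1790 genes) and 5 with the neighbours' shift subtracted (2424 genes), and the Pgk1 count of 14 was 9 without clone 17 (430 genes).

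Pkm was the gene most like Pgk1 among the 12478, with Pearson r = 0.960 (permutation p = 1e-05, adjusted p = 0.0936) and Spearman rho = 0.927 (permutation p = 0.00013, adjusted p = 0.195) over 11 clones. Ldha came next, with r = 0.895 (permutation p = 0.00031, adjusted p = 0.130) and rho = 0.855. Then followed Dbi, Fam162a and Smarcd2, and 7 members were among the nearest 20 genes: Pkm, Ldha, Aldoa, Tpi1, Pgam1, Pfkl and Gapdh. Without clones 25 and 17, the farthest from the median Pgk1 level, r was 0.970 for Pkm and 0.735 for Ldha, and the median r over 31 members went from 0.559 to 0.370. At a minimum mean level of 5 CPM, the most negative correlations with Pgk1 were those of Kif3b, Cops7b and Chm.

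Tpi1 was the gene most like Ldha, with r = 0.942 (permutation p = 2e-05, adjusted p = 0.0936) and rho = 0.964 (permutation p = 4e-05, adjusted p = 0.17), followed by Nans, Pgam1, Fam162a and Psmf1. Fam162a, a HIF target outside the members, was thus near both enzymes. Without clones 17 and 25, r between Ldha and Tpi1 was 0.939, and the median over 31 members went from 0.653 to 0.609. The lowest correlations with Ldha, at the same 5 CPM minimum, were those of Sde2, Cbll1 and Cdkl2.

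Hif1a mRNA ran opposite to most members, with a median r of -0.537 and 26 of 31 below 0. Over all 12478 genes the median r with Hif1a was 0.005, and 50.25% were above 0. The members also correlated with each other, so the 31 values are not independent. The correlation of Hif1a with Hk1 was r = -0.791 (permutation p = 0.00392, adjusted p = 0.189) and rho = -0.682 (permutation p = 0.0256, adjusted p = 0.396). It was -0.75 with Pdk3 and -0.73 with P4ha1. Without clones 19 and 17, the farthest from the median Hif1a level, r with Hk1 was -0.559 and the median over the members was -0.414, so the relation rested in part on those clones. The genes nearest to Hif1a were Vapa, Cltc, Phf23, Cenpc1 and Kdm6a, and the most negative at a mean of at least 5 CPM were Srebf1, Asb16 and Crxos, with no member in the nearest 20.

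Other genes of these pathways were taken from 3 lists. They held 35 genes of glycolysis, pyruvate use and glucose synthesis, 7 genes of the pentose phosphate branch and 30 HIF regulators and targets. Of the first, 26 were tested and 3 varied: Eno3, the muscle enolase, highest in clone 17 at 35.2 CPM against a median of 10.9, Fbp2 and Pcx. Of the pentose phosphate genes 1 of 7 varied, the epimerase Rpe, from 39.0 CPM in clone 16 to 134 in clone 26. The most abundant genes of the 3 lists, Pdha1 at 371 ± 76.2 CPM, Tkt at 475 ± 82.9 and Arnt at 255 ± 51.3, were not called (adjusted p = 1 each, edgeR trend). Of the HIF list 7 of 25 tested genes varied (28%). The shares in the glycolysis and pentose phosphate lists were 11.5% and 14.3%, and 7.68% of all genes tested varied. Ak4, a mitochondrial adenylate kinase, ran from 31.8 CPM in clone 25 through a median of 80.2 to 313 in clone 19 (adjusted p = 3.82e-22, edgeR trend), and was 255 in clone 17. Ddit4, a brake on mTOR signalling, ran from 58.2 CPM in clone 25 through a median of 157 to 335 in clone 16 (adjusted p = 1.76e-12, edgeR trend). The others were Stc2, Plod1, Arnt2, Loxl2 and Epas1, which encodes HIF-2 alpha, and their extremes fell in different clones: Plod1 and Epas1 were highest in clone 17, where Stc2 and Arnt2 were lowest. In the comparison of each clone with the other 10, Bnip3l, a mitophagy receptor related to Bnip3, was lower in clone 21. It stood there at 37.1 CPM against 77.8 ± 3.81 (log2 change -1.07, edgeR quasi-likelihood). The shift of its neighbours on the chromosome is not given here, unlike that of the members. Whether its whole region was lower in clone 21 was not tested.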

How the data were processed

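Counts per gene are raw whole numbers as deposited by the authors; per the deposited file's own name the genes are protein-coding genes of Ensembl. TopHat 1.4.0 and Bowtie 0.12.7, and builds mm9 and hg19, are named in the submitters' processing notes; the sources used here do not give the counting tool, the strand setting or the treatment of reads that match several genes. Symbols and lengths came from GENCODE M21 and promoter windows from RefSeq, both on GRCm38, matched by ID or symbol. CPM used TMM factors (0.971 to 1.04) from edgeR 4.0.16. In these libraries 3 counts of a gene correspond to 0.173 to 0.284 CPM. Spread was tested against edgeR's dispersion trend (chi-square, 10 degrees of freedom) at a mean of at least 1 CPM, clones against the other 10 by quasi-likelihood, and correlations by permutation of log2(CPM + 1), all with Benjamini-Hochberg adjustment over all genes, at 0.05. Named non-members are the 5 highest and 3 lowest correlations of Pgk1, Ldha and Hif1a at a mean of at least 5 CPM, the most abundant gene of each pathway list and its variable genes, of which those beyond 4 a list were added after their values were seen. Alternatives were DESeq2 1.42.0, other filters, lengths, a pseudocount of 0.5, shifts of 24 neighbours and leaving out each clone. The scripts were tested on simulated data. The members and lists were chosen with earlier results of these data known. With 1 library a clone, p-values measure spread between these libraries only.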

Additional observations from a re-analysis of the deposited data

How the results depend on the processing

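The 959 variable genes became 817 to 1031 under other filters, scalings, dispersion trends and left-out clones. The 8 variable members were 4 to 10 when clones were left out in turn. The 293 calls of a clone against the other 10 were 152 to 278 with a clone left out and 1444 with DESeq2, where the calls of members went from 0 to 2; the cause was not tested. No correlation passed the adjusted threshold in any alternative. With clones left out the median r of members was 0.502 to 0.646 for Pgk1, 0.560 to 0.697 for Ldha and -0.599 to -0.383 for Hif1a, and the median over member pairs 0.328 to 0.457. Scaling moved no member's mean level by more than 0.3%. No paired analysis was possible because all clones form 1 group. Depth limits Ankrd37, which had only a few counts in some libraries.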
